A study of Mus musculus with 8 samples.

Results

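The 10 genes described here belong to the C/EBP, Pim and STAT3 axis and were measured in mpkCCD cells: the transcription factor genes Cebpa, Cebpb and Cebpd, the kinase genes Pim1, Pim2 and Pim3, the cytokine receptor genes Il6st and Lifr, the transcription factor gene Stat3 and the feedback gene Socs3. Cebpd and Pim3 were chosen by their measured values, because both were lower with tolvaptan in these libraries, and the other 8 genes were added as their relatives, to ask whether they follow. The 10 genes were all found among the 55414 genes of the deposited tables, and 9 of them were among the 14772 genes with enough counts to be tested. Lifr was the gene that was not tested. The values of Cebpd and Pim3 are therefore given as a description, with no test.

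The cells are a mouse line made from microdissected cortical collecting ducts of SV-PK/Tag transgenic mice, and by the study's methods a single re-cloned line, chosen for high Aqp2, was grown on permeable supports in medium with dexamethasone, a glucocorticoid. Cells received Tolvaptan plus dDAVP in 4 libraries and dDAVP alone in 4 libraries. dDAVP is a synthetic vasopressin that acts on the V2 receptor, and tolvaptan blocks that receptor, so both groups carried the agonist and no group was without it. The labels give no dose and no length of exposure. They also do not say that the 4 libraries of either group are separate cultures, and the p-values below therefore cover the variation among these libraries alone, which may be technical.

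C/EBP proteins are basic leucine zipper transcription factors that bind DNA as dimers. Cebpb and Cebpd are induced by cytokines, cyclic AMP and glucocorticoids in many cells, whereas Cebpa is best known from liver, fat and myeloid cells. Cytokines of the interleukin-6 family bind receptor complexes that share gp130, the product of Il6st. Janus kinases bound to gp130 then phosphorylate STAT3, which activates its target genes, Socs3 among them, and SOCS3 in turn inhibits the receptor complex. Pim kinases are serine/threonine kinases that are active once made, so their level is set largely by transcription, mRNA stability and protein turnover. In hematopoietic cells Pim1 is a well known target of the STAT pathway.

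Total expected counts ran from 41179670 to 49720488 with tolvaptan plus dDAVP and from 46189118 to 56203831 with dDAVP alone. Tolvaptan replicate 1 stood apart from the other 7 libraries: the chi-square per degree of freedom of its counts against theirs was 31.1 to 48.9, against 8.18 to 25.1 between the others. Without it the log2 fold changes given below were -0.85 for Cebpd and -0.71 for Pim3, and those of Cebpb, Il6st and Socs3 without it stand beside their values. The labelled cell type was checked against 11 principal cell markers, of which 10 were tested and 0 passed the test. Their summed level was 9510 to 12033 TPM with tolvaptan plus dDAVP and 9104 to 11345 TPM with dDAVP alone. TPM is a transcript's share of all transcripts after correction for length. Most of the sum was Aqp2, for which the line was chosen, at 9439 TPM with tolvaptan plus dDAVP and 8947 TPM with dDAVP alone. Its log2 fold change was 0.05 (edgeR adjusted p = 0.857). The study's paper reports that tolvaptan lowers Aqp2 mRNA. A fall of Aqp2 was not seen in these libraries, and the reason was not tested. Scnn1b and Elf5 averaged under 1 TPM in both groups, and Elf5 alone was too low to test. Among 8 immune cell markers 3 were tested and 0 passed, and their summed level was 15.96 to 17.48 TPM with tolvaptan plus dDAVP and 13.93 to 16.09 TPM with dDAVP alone. Cd68 and Csf1r made up nearly all of that sum, while Ptprc, Lyz2, Adgre1, Cd3e, Cd79a and Itgam averaged under 1 TPM in both groups. The summed levels of fibroblast, endothelial and intercalated cell markers were at most 0.74, 0.45 and 2.83 TPM in any tolvaptan library and at most 0.59, 0.32 and 1.16 TPM in any dDAVP library, and 0 of the 2 genes among them that were high enough to test passed. Markers of other tubule segments summed to 9.19 to 12.6 TPM with tolvaptan plus dDAVP and 8.88 to 10.48 TPM with dDAVP alone, most of it Lrp2, and 0 of the 2 that were tested passed. Acute induction genes such as Fos and Egr1, which respond to handling, summed to 282 to 1204 TPM with tolvaptan plus dDAVP and 386 to 806 TPM with dDAVP alone, and 0 of 6 passed. The part of other cell types or of handling in the results below was not tested. In bulk RNA, fewer cells that express a gene cannot be told apart from less RNA of that gene per cell.

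Sequences upstream of the start sites are shown for the most abundant Pim gene, the most abundant C/EBP gene and the feedback gene that the comparison asks about. Cebpd had no window in the reference, so its sequence was not searched. The windows run from 250 bases before to 50 bases after the RefSeq start on GRCm38.p6, 5′ to 3′ on the strand of the gene. They lie at chr15:88861944-88862243 (plus strand) for Pim3, at chr2:167688665-167688964 (plus strand) for Cebpb and at chr11:117969317-117969616 (minus strand) for Socs3. Capitals mark matches to 3 motifs that were searched on both strands: the STAT motif TTCNNNGAA, the C/EBP motif TTGCNNAA and TGACG, the core of the cyclic AMP response element.
Pim3: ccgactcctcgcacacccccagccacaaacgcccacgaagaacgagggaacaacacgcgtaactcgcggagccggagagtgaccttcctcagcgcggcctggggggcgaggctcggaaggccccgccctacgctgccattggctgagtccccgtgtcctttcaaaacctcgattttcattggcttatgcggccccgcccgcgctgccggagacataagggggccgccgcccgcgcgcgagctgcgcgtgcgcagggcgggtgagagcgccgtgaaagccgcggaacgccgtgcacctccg
Cebpb: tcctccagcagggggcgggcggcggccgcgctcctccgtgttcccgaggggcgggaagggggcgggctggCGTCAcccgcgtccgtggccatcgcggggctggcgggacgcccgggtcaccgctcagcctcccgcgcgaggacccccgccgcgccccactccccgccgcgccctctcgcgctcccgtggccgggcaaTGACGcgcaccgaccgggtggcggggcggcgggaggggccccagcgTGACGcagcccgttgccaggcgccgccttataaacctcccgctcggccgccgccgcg
Socs3: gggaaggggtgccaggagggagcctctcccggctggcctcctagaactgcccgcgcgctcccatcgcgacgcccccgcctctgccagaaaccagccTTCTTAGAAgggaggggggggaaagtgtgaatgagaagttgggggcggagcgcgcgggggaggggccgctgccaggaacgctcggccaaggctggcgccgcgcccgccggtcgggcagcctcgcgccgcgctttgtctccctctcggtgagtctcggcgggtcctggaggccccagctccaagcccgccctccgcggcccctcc

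The Socs3 window held the STAT match TTCTTAGAA, which starts 154 bases before the start site, as 8.30% of 32851 mouse windows of the same length held at least 1 such match. The Cebpb window held TGACG at 53 and 7 bases before the start, and its reverse complement at 180 bases before, and 20.8% of all windows held that core. The Pim3 window held none of the 3 motifs. Among the other members with a window, Pim2 had the C/EBP match TTGCATAA at 157 bases before its start (10.8% of all windows held this motif), and the windows of Cebpa, Pim1, Stat3, Il6st and Lifr had no match. The motifs do not overlap one another in these windows. A match is a description of letters and does not show that a factor binds there.

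The members also differed in the make-up of their transcripts in the GENCODE M21 annotation on GRCm38, which is not the annotation used for the counts. Cebpa on chromosome 7, Cebpb on chromosome 2 and Cebpd on chromosome 16 have 1 exon each, as 2.87% of 12217 tested genes with a coding transcript do, where the median was 9 exons. Socs3 on chromosome 11 has 2 exons and each Pim gene has 6 (Pim1 on chromosome 17, Pim2 on chromosome X, Pim3 on chromosome 15), whereas Stat3 on chromosome 11 has 24, Lifr on chromosome 15 has 19 and Il6st on chromosome 13 has 17. The pentamer ATTTA, the core of the AU-rich elements found in many short-lived mRNAs, was counted on the transcript strand in the 3′ UTR of the longest coding transcript. Pim3 held 5 copies, 5.19 per kilobase, and Pim1 held 5 copies, 3.66 per kilobase. Cebpd held 7 copies, 2.41 per kilobase, and Socs3 held 4 copies, 2.71 per kilobase. Cebpb and Cebpa held 0 copies and Stat3 held 2 copies, 0.540 per kilobase. The median over 12127 tested genes with a 3′ UTR was 1.26 per kilobase, and 68.6% of them held at least 1 copy. Both genes that were chosen for being lower lay above that median, as did Pim1, Socs3, Pim2, Lifr and Il6st.

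Cebpb made up most of the C/EBP transcripts, and Cebpd was the C/EBP gene whose libraries did not overlap between the groups. Cebpd (ENSMUSG00000071637), a factor of acute phase and inflammatory responses, stood at 46.3, 52.9, 52.4 and 50.4 TPM in replicates 1 to 4 with tolvaptan plus dDAVP, and at 88.6, 92.3, 99.2 and 90.2 TPM in replicates 1 to 4 with dDAVP alone. Every tolvaptan library lay below every dDAVP library. The means were 50.5 ± 3.00 TPM with tolvaptan plus dDAVP and 92.6 ± 4.66 TPM with dDAVP alone (SD, n = 4). The fitted log2 fold change of tolvaptan plus dDAVP over dDAVP alone was -0.89 with a standard error of 0.06, or 0.539 of the level with dDAVP alone. The difference in replicates 1 and 2 of both groups was -0.89 on the log2 CPM scale, and in replicates 3 and 4 it was -0.89 too.

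**Figure D1:**
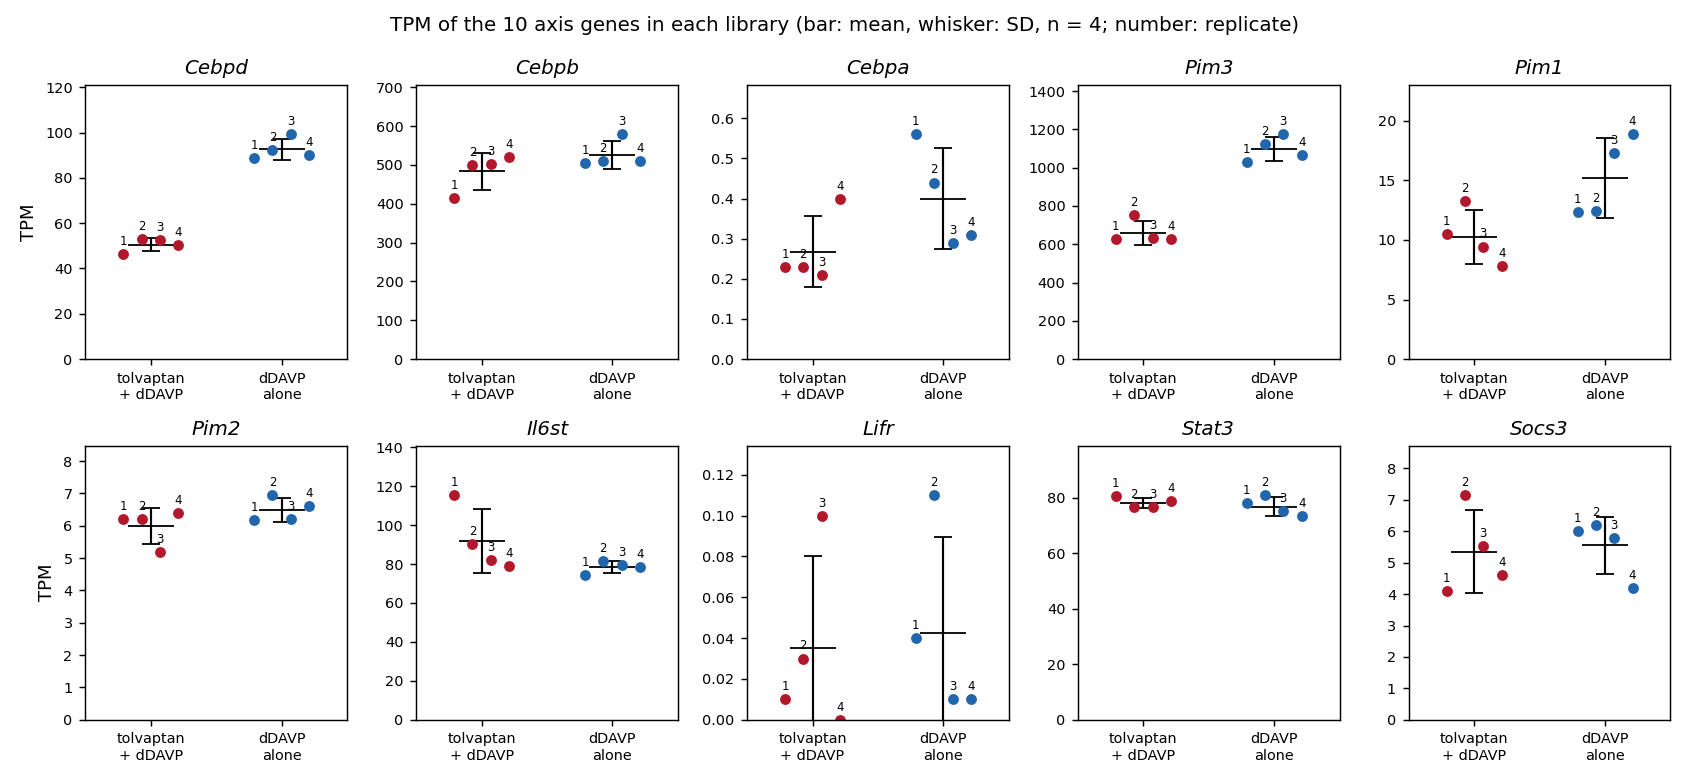
TPM of the 10 axis genes in each library, with a panel for each gene, tolvaptan plus dDAVP in red on the left and dDAVP alone in blue on the right; numbers are replicates, bars are means and whiskers SD (n = 4). Cebpd and Pim3 are the 2 genes whose TPM do not overlap between the groups, while Socs3, Stat3, Pim2 and Cebpb overlap.

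Cebpb (ENSMUSG00000056501), the partner of Cebpd in many promoters, overlapped between the groups. It stood at 414, 500, 501 and 521 TPM with tolvaptan plus dDAVP, and at 505, 510, 579 and 511 TPM with dDAVP alone. Tolvaptan replicate 1 was the lowest library and dDAVP replicate 3 the highest, and the other 6 lay between them and overlapped. The means were 484 ± 47.8 TPM with tolvaptan plus dDAVP and 526 ± 35.3 TPM with dDAVP alone (SD, n = 4). The log2 fold change of Cebpb was -0.14, and its 95% confidence interval ran from -0.32 to 0.04 (edgeR quasi-likelihood test, Benjamini-Hochberg adjusted p = 0.586). It was -0.05 without tolvaptan replicate 1 and -0.09 without dDAVP replicate 3.

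Cebpa (ENSMUSG00000034957) was close to the lower limit of measurement, with 13 to 45 counts per library. It stood at 0.23, 0.23, 0.21 and 0.40 TPM with tolvaptan plus dDAVP, and at 0.56, 0.44, 0.29 and 0.31 TPM with dDAVP alone. The groups overlapped, and the log2 fold change of -0.54 had an interval from -1.25 to 0.17 (edgeR adjusted p = 0.595), so that a difference was not detectable at this depth. On replicates 3 and 4 of both groups alone the log2 fold change was 0.11, and on replicates 1 and 2 alone it was -1.09.

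Within the C/EBP family the share held by Cebpd differed. Cebpd made up 8.89 ± 0.469% of the summed TPM of Cebpa, Cebpb, Cebpd and Cebpg with tolvaptan plus dDAVP, and 14.2 ± 0.292% with dDAVP alone (SD, n = 4). Cebpb held 84.9 ± 0.629% with tolvaptan plus dDAVP and 80.5 ± 0.403% with dDAVP alone. Cebpg, a family member that lacks an activation domain, held 6.16 ± 0.262% with tolvaptan plus dDAVP and 5.22 ± 0.421% with dDAVP alone. The summed level of the family was 570 ± 53.6 TPM with tolvaptan plus dDAVP and 653 ± 40.6 TPM with dDAVP alone, and both Cebpd and Cebpb, by the means above, were lower in it with tolvaptan. The sum did not overlap, at 490 to 607 TPM with tolvaptan plus dDAVP and 630 to 714 TPM with dDAVP alone. Set against its partner, Cebpd was 9.68 to 11.2% of Cebpb with tolvaptan plus dDAVP and 17.1 to 18.1% of Cebpb with dDAVP alone. These shares contain the level that Cebpd was chosen for and are given without a test.

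The Pim transcripts were almost entirely those of Pim3, in both groups. Pim3 (ENSMUSG00000035828) stood at 626, 754, 635 and 627 TPM with tolvaptan plus dDAVP, and at 1029, 1123, 1174 and 1067 TPM with dDAVP alone. The groups did not overlap, and tolvaptan replicate 2 lay above the other 3 libraries of its group. The means were 661 ± 62.7 TPM with tolvaptan plus dDAVP and 1098 ± 63.7 TPM with dDAVP alone (SD, n = 4). The fitted log2 fold change was -0.76 with a standard error of 0.07, or 0.590 of the level with dDAVP alone. It was -0.67 on replicates 1 and 2 of both groups and -0.85 on replicates 3 and 4.

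Pim1 (ENSMUSG00000024014), which can phosphorylate many of the same substrates, was far lower: Pim3 stood at 57.0 to 80.5 times its TPM with tolvaptan plus dDAVP and at 56.5 to 90.6 times its TPM with dDAVP alone. Pim1 stood at 10.5, 13.2, 9.45 and 7.79 TPM with tolvaptan plus dDAVP, and at 12.3, 12.4, 17.3 and 18.9 TPM with dDAVP alone. Tolvaptan replicate 2 lay above dDAVP replicates 1 and 2, so the groups overlapped. The means were 10.25 ± 2.29 TPM with tolvaptan plus dDAVP and 15.2 ± 3.37 TPM with dDAVP alone, and the log2 fold change was -0.59 with a standard error of 0.19 (95% confidence interval from -0.99 to -0.19). Pim1 did not pass edgeR's test (adjusted p = 0.232), in which 59 of 14772 genes, 0.399%, passed. With DESeq2 it passed (adjusted p = 0.0426), where 2.58% of 13053 genes did. With edgeR and no filter on low counts it also passed (adjusted p = 9.44e-07), where 0.672% of 38115 genes did. Its log2 fold change in that fit was -0.61, against -0.59 with the filter, so the smaller p does not reflect a larger difference. Why the p changed was not tested.

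The log2 fold change of Pim1 was -1.01 on replicates 3 and 4 of both groups and -0.17 on replicates 1 and 2. The labels name no batch that divides the replicates in this way, the division was chosen after the data were seen, and the difference between the pairs of replicates was not tested. In the reference annotation Gm26885 overlaps exons of Pim1 on the opposite strand, and with a kit that does not mark strand the reads of the pair cannot be told apart. Gm26885 stood at 1.56 TPM with tolvaptan plus dDAVP and 2.32 TPM with dDAVP alone, with a log2 fold change of -0.46 (edgeR adjusted p = 0.551).

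Pim2 (ENSMUSG00000031155) was the lowest of the Pim genes. It stood at 6.21, 6.21, 5.18 and 6.40 TPM with tolvaptan plus dDAVP, and at 6.17, 6.95, 6.20 and 6.62 TPM with dDAVP alone, and the groups overlapped. Its log2 fold change was -0.16 with an interval from -0.36 to 0.05 (edgeR adjusted p = 0.584). The summed level of the Pim genes was 677 ± 64.8 TPM with tolvaptan plus dDAVP and 1120 ± 64.7 TPM with dDAVP alone. Pim3 held 97.6 ± 0.192% of it with tolvaptan plus dDAVP and 98.1 ± 0.287% with dDAVP alone. Pim1 held 1.21 to 1.71% with tolvaptan plus dDAVP and 1.09 to 1.73% with dDAVP alone.

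**Figure D2:**
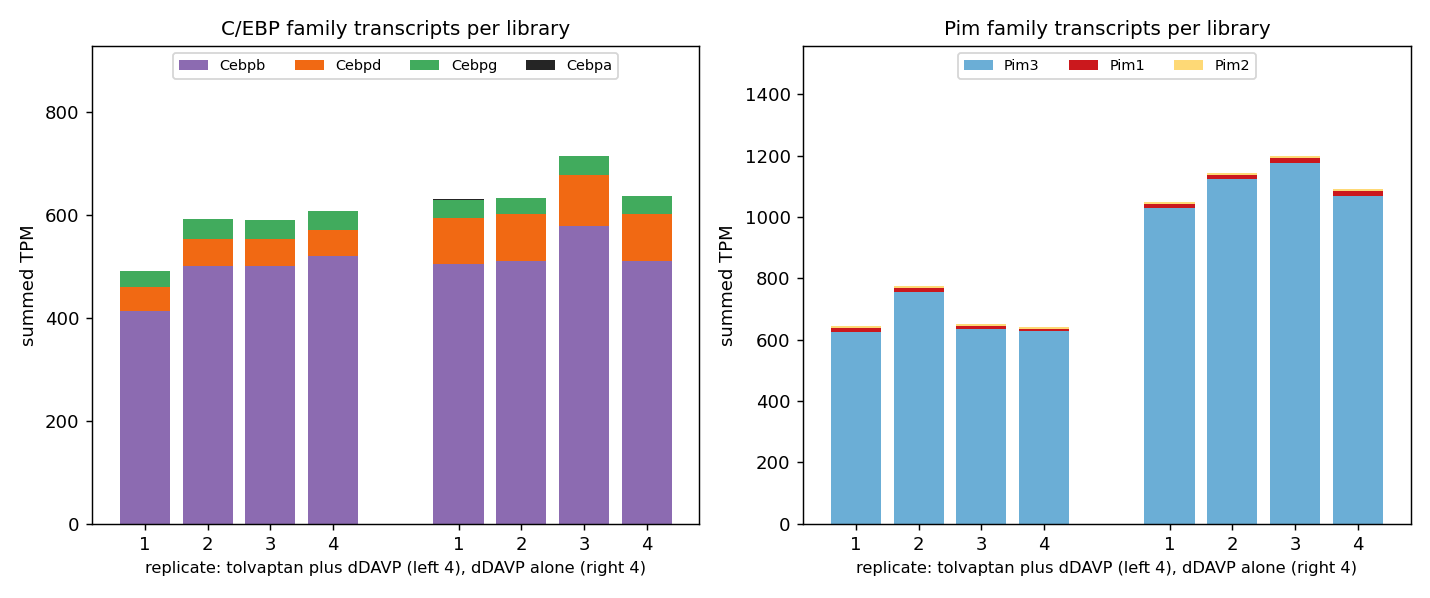
Summed TPM of the C/EBP family (left panel) and of the Pim family (right panel) in each library, with the 4 tolvaptan plus dDAVP libraries left of the 4 dDAVP alone libraries. Pim3 makes up 97.6% of Pim transcripts with tolvaptan plus dDAVP and 98.1% with dDAVP alone, and Cebpb makes up 84.9% of C/EBP transcripts with tolvaptan plus dDAVP and 80.5% with dDAVP alone.

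The receptor genes differed strongly in level. Il6st (ENSMUSG00000021756), which encodes gp130, stood at 115, 90.3, 82.3 and 79.2 TPM with tolvaptan plus dDAVP, and at 74.4, 81.7, 79.3 and 78.6 TPM with dDAVP alone. Tolvaptan replicate 1 was the highest library, and tolvaptan replicate 4 lay among the dDAVP libraries in TPM. On the log2 CPM scale, which follows the counts and is not corrected for transcript length, all 4 tolvaptan libraries lay above all 4 dDAVP libraries. The means were 91.8 ± 16.4 TPM with tolvaptan plus dDAVP and 78.5 ± 3.04 TPM with dDAVP alone, and the log2 fold change was 0.23 (95% confidence interval from 0.04 to 0.41), which did not pass (edgeR adjusted p = 0.333). Without tolvaptan replicate 1 it was 0.12, and it was 0.40 on replicates 1 and 2 of both groups and 0.05 on replicates 3 and 4.

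Lifr (ENSMUSG00000054263), the receptor chain that pairs with gp130 for leukemia inhibitory factor, had 1 to 10 counts per library. It was listed at 0.01, 0.03, 0.10 and 0.00 TPM with tolvaptan plus dDAVP, and at 0.04, 0.11, 0.01 and 0.01 TPM with dDAVP alone. It was not tested, and no difference could be detected at this depth.

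Stat3 (ENSMUSG00000004040) varied least among the tested members, with an SD within groups of 0.03 on the log2 CPM scale. It stood at 80.5, 76.4, 76.7 and 78.7 TPM with tolvaptan plus dDAVP, and at 77.9, 80.9, 75.1 and 73.2 TPM with dDAVP alone. The libraries of the groups were interleaved, and the log2 fold change was 0.01 with an interval from -0.08 to 0.11 (edgeR adjusted p = 0.934). These values are of the transcript and do not measure STAT3 phosphorylation.

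Socs3 (ENSMUSG00000053113), the STAT3-induced inhibitor of gp130 signaling, overlapped between the groups and gave no call. It stood at 4.11, 7.15, 5.54 and 4.62 TPM with tolvaptan plus dDAVP, and at 6.01, 6.20, 5.79 and 4.20 TPM with dDAVP alone. The lowest and the highest of the 8 libraries, replicates 1 and 2, were both of the tolvaptan group, and the dDAVP libraries lay between them. The means were 5.36 ± 1.33 TPM with tolvaptan plus dDAVP and 5.55 ± 0.915 TPM with dDAVP alone. The log2 fold change was -0.05, and the 95% confidence interval ran from -0.43 to 0.33 (edgeR adjusted p = 0.943), that is from 0.741 to 1.26 times the level with dDAVP alone. Its sign turned without tolvaptan replicate 1 (0.07), tolvaptan replicate 4 (0.00093) or dDAVP replicate 2 (0.0071). It was -0.24 without tolvaptan replicate 2 and -0.15 without dDAVP replicate 4, and the adjusted p was 0.635 or more in each of the 8 fits. The interval holds neither the value of Cebpd nor that of Pim3. Both were chosen for being lower in these libraries, so they are no independent measure to set Socs3 against. The difference between genes was not tested.

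**Figure D3:**
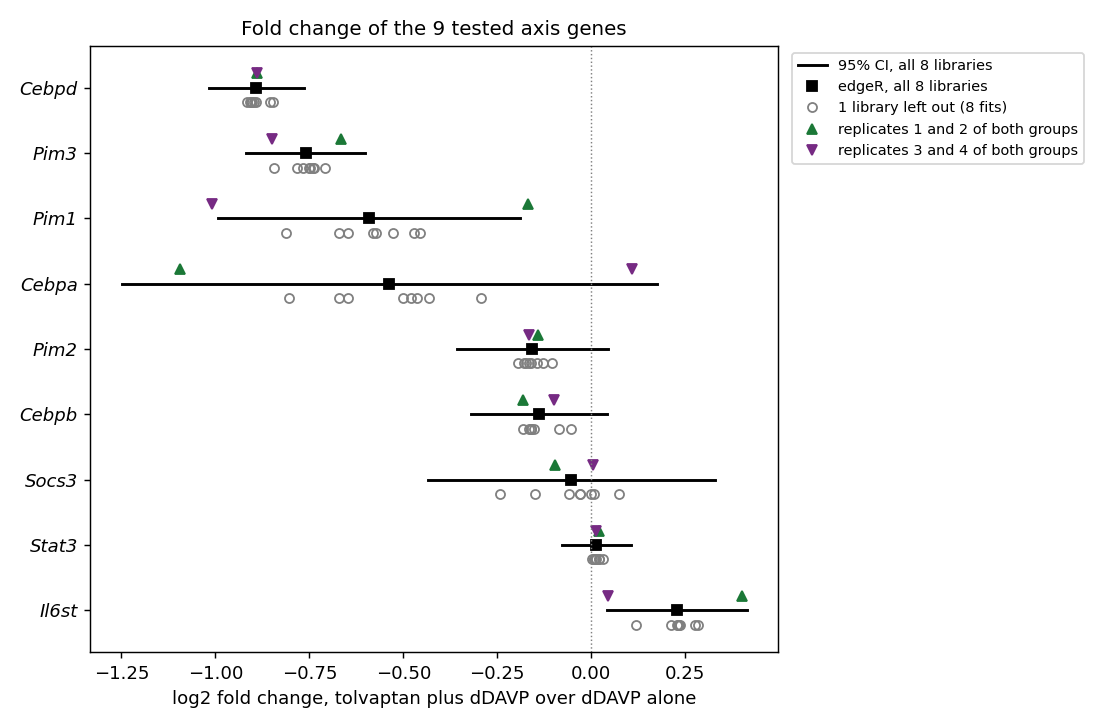
Log2 fold change of tolvaptan plus dDAVP over dDAVP alone for the 9 tested genes, with black squares and lines for edgeR and its 95% confidence interval on all 8 libraries, circles for fits with 1 library left out, and triangles for replicates 1 and 2 (green) or 3 and 4 (purple) of both groups. The intervals of Socs3 and Stat3 span 0, and the triangles of Pim1 lie at -0.17 and -1.01.

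Counted together, 0 of the 7 tested relatives of Cebpd and Pim3 passed edgeR's test in either direction, where 0.217% of all genes passed as lower and 0.183% as higher. DESeq2 called 1 of them, Pim1, and 2 of the 7, Pim1 and Il6st, had an unadjusted edgeR p under 0.05. The log2 fold change was below 0 for 5 and above 0 for 2, and the median over all tested genes was -0.0048. TPM did not overlap between the groups for 2 of the 10 members, Cebpd and Pim3, as for 6.53% of tested genes, and log2 CPM did not overlap for 3, with Il6st added, as for 7.76% of tested genes. Cebpd and Pim3 are in these counts by the way they were chosen.

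With dDAVP alone the order of mean TPM was Pim3, Cebpb, Cebpd, Il6st, Stat3, Pim1, Pim2, Socs3, Cebpa and Lifr. In that order Il6st and Stat3 overlapped, as did Pim2 and Socs3, and the other neighbours did not overlap. With tolvaptan plus dDAVP, Cebpd stood below Il6st and Stat3, and no library of Cebpd reached a library of either.

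Reads of some members cannot be told apart from those of a gene on the opposite strand. Spidr, opposite Cebpd, had a log2 fold change of -0.02 (edgeR adjusted p = 0.915), at 43.9 TPM with tolvaptan plus dDAVP and 44.4 TPM with dDAVP alone. Tmem189, opposite Cebpb, had -0.09 (adjusted p = 0.464), and Stat5a, opposite Stat3, had -0.07 (adjusted p = 0.706). Gm45091, opposite Cebpa, was too low to test. None of the 3 that were tested passed.

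The wider pathway was described with 9 lists, holding 122 genes counted once, of which 98 were tested. In all, 5 of them fell and 0 rose, where 0.217% of all tested genes passed as lower and 0.183% as higher, and the median log2 fold change was -0.05. The lists that carry the signal from the ligand to STAT3 had no gene that passed edgeR's test. Of 10 ligands 7 were tested, with a median of -0.03, and Il6 and Osm, which encode interleukin-6 and oncostatin M, were too low to test at under 1 TPM. With DESeq2, which called 2.58% of 13053 genes, 1 ligand passed. Ctf1, which encodes cardiotrophin, stood at 74.8 ± 1.95 TPM with tolvaptan plus dDAVP and 73.6 ± 7.71 TPM with dDAVP alone. Log2 CPM did not overlap between the groups for 2 of the 7 tested ligands, where it did not for 7.76% of all tested genes. They were Lif, the leukemia inhibitory factor gene, and Il11, at under 1 TPM, both named here after their values were seen. In TPM both overlapped. Lif ran from 4.22 to 5.33 TPM with tolvaptan plus dDAVP and from 4.95 to 6.40 TPM with dDAVP alone. The log2 fold change was -0.35 for Lif (edgeR adjusted p = 0.184) and -0.74 for Il11 (edgeR adjusted p = 0.430).

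Of 13 other receptor chains 8 were tested and 0 passed, with a median of -0.03. Il10rb, the shared chain of the interleukin-10 family, stood at 138 ± 7.14 TPM with tolvaptan plus dDAVP and 150 ± 8.57 TPM with dDAVP alone (edgeR adjusted p = 0.316), and Ifngr1, a chain of the interferon gamma receptor, at 71.7 ± 3.93 TPM with tolvaptan plus dDAVP and 73.1 ± 3.39 TPM with dDAVP alone. Of 10 Janus kinases and other STATs 9 were tested and 0 passed, with a median of -0.06 and all values between -0.08 and 0.04. Stat6, at 147 ± 9.35 TPM with tolvaptan plus dDAVP and 146 ± 7.13 TPM with dDAVP alone, and Jak1, at 107 ± 7.07 TPM with tolvaptan plus dDAVP and 101 ± 2.28 TPM with dDAVP alone, were the most abundant.

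Of 17 other SOCS genes, PIAS genes and phosphatases 16 were tested and 0 passed edgeR's test, with a median of 0.0012. With DESeq2, which called 2.58% of 13053 genes, 1 of them passed. Ptpn1, which encodes a phosphatase of Janus kinases, had a log2 fold change of 0.05, and Pias1, which encodes a SUMO ligase, had -0.07. Among the relatives of Socs3, named after their values were seen, Socs4 had -0.27 (edgeR adjusted p = 0.109) and Socs5 had 0.18 (adjusted p = 0.268). Socs4 and Socs5 lay in opposite directions. With Pias4 (0.16) they were the 3 of the 16 tested genes whose log2 CPM did not overlap between the groups. It did not overlap for 7.76% of all tested genes. In TPM Socs4 and Socs5 overlapped between the groups, while Pias4 did not.

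Of 22 STAT3 target genes 17 were tested, 1 fell and 0 rose. Their median was -0.13 and 13 values lay below 0, where the median over all tested genes was -0.0048. Of all tested genes, 0.217% passed as lower. The gene that fell was Myc, a growth-promoting transcription factor gene that many pathways besides STAT3 control. It stood at 176, 234, 227 and 205 TPM with tolvaptan plus dDAVP, and at 340, 347, 359 and 395 TPM with dDAVP alone, and the groups did not overlap. Its log2 fold change was -0.79 with a standard error of 0.09 (edgeR adjusted p = 0.0029). Junb, an AP-1 subunit gene, had -0.61 (adjusted p = 0.213), with 470 TPM in tolvaptan replicate 2 overlapping the dDAVP libraries. Klf6, a Krüppel-like factor gene, had -0.46 (adjusted p = 0.0596), and its TPM did not overlap, at 229 to 331 TPM with tolvaptan plus dDAVP and 348 to 387 TPM with dDAVP alone. TPM did not overlap for 6.53% of all tested genes. Without tolvaptan replicate 2, 3 genes of this list passed, in a fit that called 39 genes in all.

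Of 18 C/EBP target genes 10 were tested, 2 fell and 0 rose, where 0.217% of all tested genes passed as lower. All 10 values lay below 0, with a median of -0.27, where the median over all tested genes was -0.0048. The list was written with earlier results of these data known. Whether C/EBP factors control these genes in these cells was not tested. The acute phase targets of the list gave no call or were too low to test. Lcn2, which encodes lipocalin-2, stood at 568 ± 51.7 TPM with tolvaptan plus dDAVP and 582 ± 82.2 TPM with dDAVP alone, and C3, which encodes complement C3, at 251 ± 32.5 TPM with tolvaptan plus dDAVP and 255 ± 24.7 TPM with dDAVP alone. The study's paper lists C3, Lbp and Ptgs2 among transcripts lowered by tolvaptan, at its own thresholds, and Lbp and Ptgs2 are named here for that reason. The log2 fold changes here were -0.03 for C3, -0.13 for Lbp and -0.46 for Ptgs2 (edgeR adjusted p = 0.926, 0.576 and 0.540). Hp, Orm1, Saa1 and Saa3, which encode acute phase proteins of liver, were too low to test. The genes that fell were Ppp1r15a, which encodes the GADD34 subunit of an eIF2 alpha phosphatase, and Id2, an inhibitor of basic helix-loop-helix factors. Ppp1r15a stood at 117, 122, 113 and 93.3 TPM with tolvaptan plus dDAVP and at 142, 152, 173 and 161 TPM with dDAVP alone, with a log2 fold change of -0.55 (edgeR adjusted p = 0.0243). Id2 stood at 147, 161, 160 and 154 TPM with tolvaptan plus dDAVP and at 203, 225, 179 and 188 TPM with dDAVP alone, with a log2 fold change of -0.40 (edgeR adjusted p = 0.0412). The number of genes called in this list was 1 without tolvaptan replicate 2, and 0 without tolvaptan replicate 3, tolvaptan replicate 4 or any one of the 4 dDAVP libraries. It was 3 without tolvaptan replicate 1. It was also 0 with limma at either pseudocount and with the replicate number as a block, and 1 among genes with a maximum TPM above 10.

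**Figure D4:**
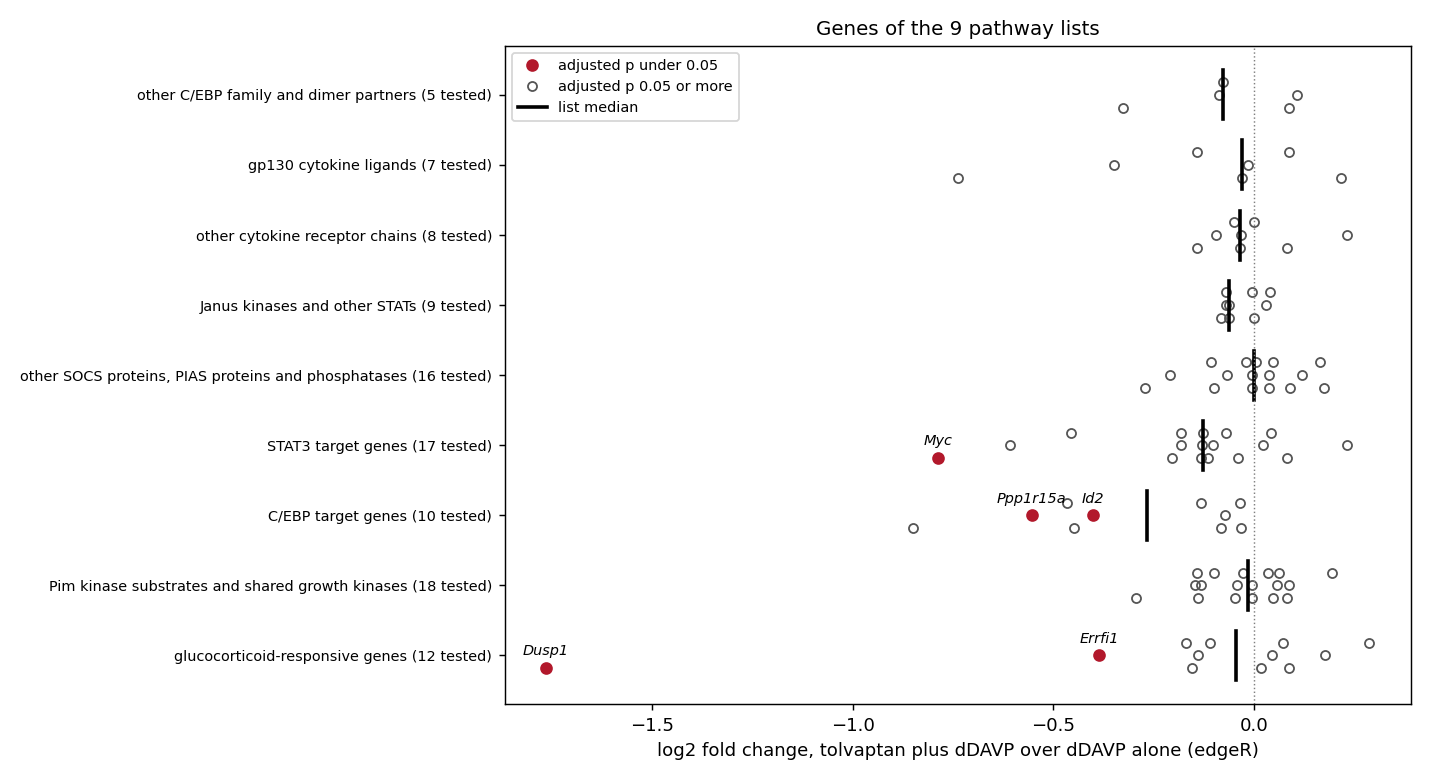
Log2 fold change of tolvaptan plus dDAVP over dDAVP alone (edgeR) for the tested genes of the 9 pathway lists, with a point for each gene, filled red where the adjusted p was under 0.05, and a black line at the median of each list. The 5 called genes are Myc, Ppp1r15a, Id2, Dusp1 and Errfi1, all below 0.

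Of 6 other C/EBP family genes and dimer partners 5 were tested and 0 passed edgeR's test, with a median of -0.08. Among these, 1 gene passed with DESeq2 and 1 without a filter, in fits that called 2.58% of 13053 and 0.672% of 38115 genes. Nfil3, named after its values were seen, had -0.33 (edgeR adjusted p = 0.109). Atf4, a stress-induced partner, stood at 330 ± 8.26 TPM with tolvaptan plus dDAVP and 344 ± 26.3 TPM with dDAVP alone. Ddit3, which encodes CHOP and has more than a single ID in the tables, so that its level is uncertain, stood at 66.2 ± 4.24 TPM with tolvaptan plus dDAVP and 60.0 ± 3.44 TPM with dDAVP alone. Of 18 Pim substrates and growth kinases that share their substrates, all 18 were tested and 0 passed, with a median of -0.02. Of these values 11 lay below 0 and 7 above, and 5 genes had an unadjusted edgeR p under 0.05. Cdkn1a, named after its values were seen, had -0.29 (edgeR adjusted p = 0.0559). In this list 1 gene passed with DESeq2, without a filter and without tolvaptan replicate 1. Those fits called 2.58% of 13053 genes, 0.672% of 38115 genes and 82 genes. Sgk1, an aldosterone- and glucocorticoid-induced kinase gene, stood at 718 ± 52.0 TPM with tolvaptan plus dDAVP and 789 ± 42.9 TPM with dDAVP alone, and Akt1 at 603 ± 29.8 TPM with tolvaptan plus dDAVP and 570 ± 19.0 TPM with dDAVP alone.

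Because Cebpd is also induced by glucocorticoids in many cells, 12 glucocorticoid-responsive genes were described beside it. All 12 were tested, 2 fell and 0 rose, with a median of -0.04, where 0.217% of all tested genes passed as lower. Of these values 6 lay below 0 and 6 above, and 6 genes had an unadjusted edgeR p under 0.05. With the replicate number as a block 1 gene of this list passed. Those that fell were Dusp1, which encodes a phosphatase of mitogen-activated protein kinases, with a log2 fold change of -1.76, and Errfi1, a feedback inhibitor of the EGF receptor, with -0.39 (edgeR adjusted p = 0.00135 and 0.00554). Both respond to other signals too. Tsc22d3, the gene of the glucocorticoid-induced leucine zipper, stood at 994 ± 142 TPM with tolvaptan plus dDAVP and 950 ± 23.3 TPM with dDAVP alone (adjusted p = 0.863).

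The genes whose log2 CPM followed each member most closely over the 8 libraries were looked for among 8936 genes with a mean above 10 TPM. For Cebpd they were Rgs2 (Pearson r = 0.984), Spry1 (0.981) and Plk2 (0.981), and for Pim3 they were Dusp1 (0.992), Rnd3 (0.986) and Errfi1 (0.985). The 8 libraries fall into their 2 groups for these genes, so much of each coefficient is the difference between the groups, which all 6 of these genes share with the member. Rgs2 stood at 7.52 to 9.30 TPM with tolvaptan plus dDAVP and 18.1 to 19.6 TPM with dDAVP alone. Dusp1, like Pim3, was highest within its group in tolvaptan replicate 2, at 53.0 TPM, and in dDAVP replicate 3, at 152 TPM. For Socs3 they were Serp2 (0.989), Mtfmt (0.977) and Hnrnpa1 (0.958), and none of these 3 passed edgeR's test (adjusted p from 0.874 to 0.931). Serp2 was lowest in tolvaptan replicate 1, at 9.89 TPM, and highest in tolvaptan replicate 2, at 15.5 TPM, as Socs3 was. These coefficients are descriptions of 8 points, and in each library both genes of a pair share its preparation and depth.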

How the data were processed

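RNA was sequenced paired-end from 8 libraries of mpkCCD cells. Per the labels, SMARTer cDNA was fragmented and tagged with Nextera XT, a route that leaves strand unmarked. STAR and RSEM are named, with no version, in the submitters' processing notes, and an Ensembl annotation in the study's methods. The authors deposited RSEM expected counts per gene, without normalization, and TPM. Deposited tables of the authors' own comparison and of term enrichment were not used. Groups and replicate numbers came from the sample titles.

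Expected counts, 7.37% of them not whole, were rounded. A gene was kept where 4 or more libraries had a count of at least 10. The 14772 genes kept were fitted in edgeR 4.0.16 (R 4.3.3, TMM factors, two-sided quasi-likelihood test), and p-values were adjusted over all of them by Benjamini-Hochberg (threshold 0.05). DESeq2, the tool of the study, was an alternative here (version 1.42.0), as were limma 3.58.1 on log2(TPM + 1) and log2(TPM + 0.1), no filter, a maximum TPM above 10, other normalizations, a block for the replicate number, and 1 library left out at a time. The standard error is the fold change on the log2 scale over the root of F. Log2 CPM used a prior count of 2. The fits were tested on simulated data. Each pair of libraries differed by more than sampling noise (chi-square per degree of freedom from 8.18 to 48.9, above 31 for all 7 pairs with tolvaptan replicate 1).

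The members and the gene lists were chosen with earlier results of these data known, so they are not independent evidence of a direction. The text names all members, from each list the called genes (up to 3) and the 2 tested genes of highest mean TPM, the 3 genes most like Cebpd, Pim3 and Socs3, and genes that overlap members' exons; others are named as such. A gene that this rule names is not reported here; it stayed in every fit and count. Of the members, 9 matched RefSeq promoter windows, and Cebpd did not. Depth limits Cebpa and Lifr most.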

Additional observations from a re-analysis of the deposited data

Results flagged for a closer look

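Libraries whose gap to the nearest other library of the group exceeded Dixon's 95% critical value for the ratio of that gap to the whole range were sought in 78 groups of TPM values, and 8 were found, where chance gives about 1 in 20. Among the members, Pim3 was 754.42 TPM in tolvaptan replicate 2, against 634.74 in the nearest library, Pim2 was 5.18 TPM in tolvaptan replicate 3, against 6.21, and Cebpa was 0.40 TPM in tolvaptan replicate 4, against 0.23. Cebpb was 578.9 TPM in dDAVP replicate 3, against 511.15. Il10rb was 127.75 TPM in tolvaptan replicate 2, against 140.75. In the dDAVP group Dusp1 was 152.03 TPM in replicate 3, against 117.32, Ddit3 was 65.12 TPM in replicate 1, against 58.69, and Rgs2 was 19.57 TPM in replicate 1, against 18.25. No cause was tested.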

How the results depend on the processing

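The log2 fold changes of Cebpd and Pim3 kept their sign in all 20 alternatives, from -0.92 to -0.85 and from -0.85 to -0.71 with 1 library left out. Both were chosen for being lower in these same libraries, so the kept sign follows from that choice and is no support. The log2 fold changes of Cebpb, Pim1 and Il6st kept their sign in all 20 and that of Pim2 in all 19. Cebpa reversed on replicates 3 and 4 of both groups (0.11). Socs3 reversed without tolvaptan replicate 1 (0.074), tolvaptan replicate 4 (0.00093) or dDAVP replicate 2 (0.0071) and on replicates 3 and 4 (0.0042), with a range of -0.24 to 0.07 when 1 library was left out. Stat3 reversed without a filter (-0.0016). The adjusted p of Pim1 ran from 0.0546 to 0.436 with 1 library left out. The number of relatives called, 0 with edgeR, was 1 with DESeq2, without a filter and on replicates 3 and 4, and 0 to 0 with 1 library left out. The 59 calls over all genes were 337 with DESeq2 (138 lower, 199 higher), 256 without a filter (128 lower, 128 higher), 22 with limma on log2(TPM + 1) (19 lower, 3 higher), 28 with limma on log2(TPM + 0.1) (20 lower, 8 higher), 4 on replicates 1 and 2, 28 on replicates 3 and 4 and 20 to 82 with 1 library left out. The 5 pathway calls were 13 with DESeq2, 11 without a filter, 3 with either limma fit and 3 to 7 with 1 library left out. The difference in the Cebpd share of C/EBP transcripts was -5.29 percentage points in TPM and -10.0 in CPM, which is not corrected for transcript length, and -5.48 to -5.09 with 1 library left out. The fits on replicates 1 and 2 or 3 and 4 were chosen after seeing the data. The causes of these changes were not tested.

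The correlations of deviations between libraries of the same number were -0.01, 0.03, 0.16 and -0.01, which does not show that the numbers pair the samples. With the replicate block 17 genes were called (14 lower, 3 higher), and 2 of the pathway genes. The 2 C/EBP target calls were 0 with the block and with either limma fit.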
